A study of Mus musculus with 4 samples.

Results

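The cells described here are luminal mammary epithelial cells that carried hormone receptor transcripts and, beyond those, transcripts of Sprr1a, Ffar4, Calcb and Reg3b. They numbered 3139 of the 5073 receptor-positive luminal cells and of 19382 cell barcodes in all, 1127 of them in one sequencing channel and 2012 in the other. Membership was set on the counts themselves. A cell needed at least 3000 gene UMIs (unique molecular identifiers, each a counted RNA molecule) and at most 15% mitochondrial UMIs. Per 10000 UMIs it needed at least 20 of the luminal keratins Krt8 and Krt18, under 20 of Lcn2, a marker of receptor-negative luminal cells, and under 10 of the basal keratins Krt5, Krt14 and Krt17. At least 2 UMIs of Prlr, Esr1, Pgr, Cited1 and Prom1 made it receptor-positive. Members then held at least 5 UMIs of Sprr1a, Ffar4, Calcb and Reg3b summed, and at least 2 times as many of these as of Krt4, Krt78, Defb14 and Sprr2f summed. Receptor-positive cells that met the mirrored rule, 803 in all, are called Krt4 Sprr2f cells, and 1131 met neither rule.

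The cells came from mouse mammary organoids, small pieces of epithelium released from the fat pads of virgin mice of 8 to 9 weeks, with the lymph nodes removed, and cultured in gels. In the 4 conditions the gel was collagen (COL1), Matrigel (MATR), or a matrix called stiff (STIFF) or soft (SOFT), with 1 culture each, and no genetic change or drug is named in any of them. COL1 and STIFF cells shared 1 channel of droplet 3′ RNA sequencing and MATR and SOFT cells the other, told apart by hashtag antibodies that put a DNA tag on each cell. The matrices' names were the only guide to which tag marks which condition. If the tags of a channel were exchanged, every difference between its conditions would turn round. With 1 culture per condition no difference could be tested, and the 95% intervals given below cover counting error only.

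Receptor-positive luminal cells are the cells of the mammary duct that sense oestrogen, progesterone and prolactin. They pass these signals to their neighbours through secreted factors such as amphiregulin (Areg) and Wnt4. Sprr1a is a small proline-rich precursor of the cornified envelope of squamous epithelia. Ffar4 is a receptor for long-chain fatty acids, Calcb encodes a calcitonin gene-related peptide, and Reg3b is a secreted antimicrobial lectin.

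The promoters of the rule's genes are shown because these genes chose the cells. Each line is the 250 bases before the gene's start in the RefSeq annotation of GRCm38.p6, read 5′ to 3′ on the gene's strand. It was searched on both strands for TGANTCA, the letters recognised by AP-1 factors, and TTCNNNGAA, those recognised by STAT factors, with matches in capitals. Both motifs equal their own reverse complement, and the matches shown do not overlap.
Sprr1a, chr3:92485882-92486131, minus strand: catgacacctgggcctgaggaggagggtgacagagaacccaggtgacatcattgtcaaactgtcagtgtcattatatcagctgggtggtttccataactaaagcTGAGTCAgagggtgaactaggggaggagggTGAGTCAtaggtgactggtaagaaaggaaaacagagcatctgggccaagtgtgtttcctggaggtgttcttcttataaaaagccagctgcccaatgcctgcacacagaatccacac
Ffar4, chr19:38096829-38097078, plus strand: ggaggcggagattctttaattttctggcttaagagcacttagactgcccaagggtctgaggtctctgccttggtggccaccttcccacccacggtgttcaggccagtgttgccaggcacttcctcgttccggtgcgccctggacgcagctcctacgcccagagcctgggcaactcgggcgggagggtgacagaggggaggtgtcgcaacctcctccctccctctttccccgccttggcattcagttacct
Reg3b, chr6:78370635-78370884, plus strand: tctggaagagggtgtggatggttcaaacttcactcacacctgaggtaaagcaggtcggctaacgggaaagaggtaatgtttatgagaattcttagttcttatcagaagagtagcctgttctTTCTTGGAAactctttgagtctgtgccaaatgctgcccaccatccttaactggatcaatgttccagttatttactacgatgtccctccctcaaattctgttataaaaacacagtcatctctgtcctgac
The Sprr1a window held 2 TGANTCA matches, starting 146 and 116 bases before the gene's start. Among 32851 promoters of this length, 2217 (6.75%) held the motif and 111 (0.338%) held at least 2. The Reg3b window held 1 TTCNNNGAA match, 129 bases before its start, a motif found in 2306 promoters (7.02%). The Ffar4 window held neither motif. In Sprr2f, a rule gene of the other cells, 1 TGANTCA lay 197 bases before the start. A match describes letters, not binding.

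The label under which these cells were proposed names Ffar4 and Reg3b, and the counts went against that name. Sprr1a supplied 91.8% of the UMIs of the 4 summed genes in the COL1 and STIFF channel and 91.8% in the MATR and SOFT channel, and most of the sum in 1072 (95.1%) and 1862 (92.5%) members. Ffar4 supplied 4.51% and 5.89%, Calcb 1.17% and 1.14%, and Reg3b 2.56% and 1.13%. None of Ffar4, Calcb and Reg3b was detected in 277 and 322 members, and all 3 together in 29 and 25. The 10 members richest in Reg3b held 52.0% and 57.0% of its UMIs. With Sprr1a left out of the sum only 246 and 606 members would have remained. The cells are therefore called Sprr1a Ffar4 cells below, after Sprr1a, which led the sum, and Ffar4, which came next at a far lower share.

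The cells formed a range, not a set with an edge. The sum of the 4 genes had a median of 43 UMIs and quartiles of 22 and 85 in the COL1 and STIFF channel, and a median of 50 with quartiles of 24 and 96 in the MATR and SOFT channel. It was exactly 5 in 14 and 27 members. Just outside, 45 and 57 receptor-positive cells held 3 to 4 UMIs at the required ratio. A further 319 and 411 held 5 or more but under 2 times the opposing genes. Members at 2 to 3 times the opposing genes numbered 96 and 155, and 366 and 658 held none of these.

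**Figure D1:**
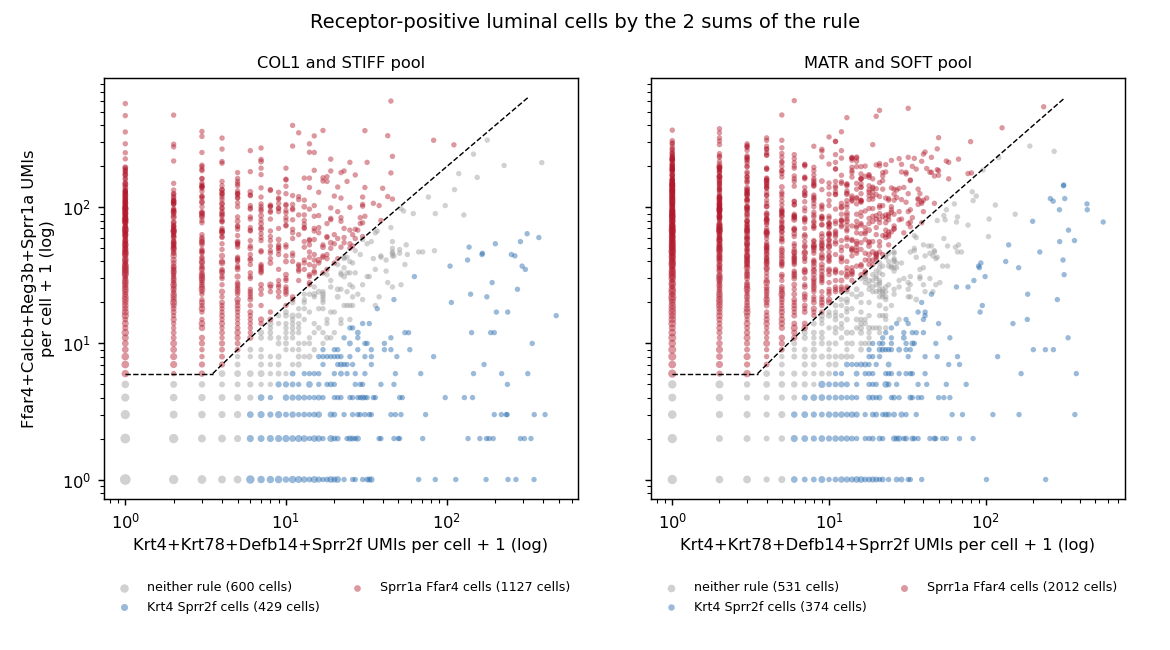
Each point is a pair of summed UMIs, of Krt4, Krt78, Defb14 and Sprr2f (horizontal axis) and of Sprr1a, Ffar4, Calcb and Reg3b (vertical axis). It stands for all receptor-positive luminal cells with that pair, and larger points hold more cells. Both axes are plus 1 on log scales, with 1 panel per channel, and the dashed line is the rule's boundary. The 1127 and 2012 members above the line continue without a gap into the cells that met neither rule.

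Gene levels are given as CPM, the UMIs of a gene summed over a group of cells and scaled to a total of 1000000 UMIs. Of the rule's own genes, which are a description of the choice, Sprr1a stood at 3876 CPM in Sprr1a Ffar4 cells, 231 in Krt4 Sprr2f cells and 786 in cells of neither rule in the COL1 and STIFF channel. The corresponding values were 4585, 470 and 971 CPM in the MATR and SOFT channel. Ffar4 stood at 190, 54.3 and 79.5 CPM in the first channel and at 294, 103 and 145 CPM in the second. Both genes were thus present, at lower levels, in receptor-positive cells outside the rule. Reg3b stood at 108 CPM in members against 4.07 in Krt4 Sprr2f cells, and at 56.3 against 9.23 CPM. Calcb stood at 49.3 against 10.4 and at 56.9 against 12.2 CPM. Of the opposing genes, Sprr2f, another cornified envelope precursor, was at 14.4 CPM in members and 2013 in Krt4 Sprr2f cells, and at 17.4 and 1889 CPM. The epithelial keratin Krt4 was less distant, at 163 and 502 CPM in the first channel and 201 and 817 CPM in the second.

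The background of these counts, such as free RNA in the droplets gives, was read in receptor-negative luminal cells and basal cells. The receptor-negative gate allowed under 2 UMIs of the receptor markers. It thus left out droplets that held more RNA of receptor-positive cells, so the background read in receptor-negative cells may be too low. At least 1 Sprr1a UMI was found in 99.4% and 98.6% of members, in 20.02% and 25.1% of Lcn2-gated receptor-negative cells (median depths of 12054 and 12532 UMIs in members, 8538.5 and 9957 in the latter) and in 17.8% and 22.4% of basal cells. When every cell was thinned to 3000 UMIs the share was 95.7% and 95.9% in members and 4.06% and 5.69% in basal cells. Ffar4 was detected in 70.8% and 80.6% of members and in 1.91% and 2.12% of receptor-negative cells. Calcb was detected in 19.2% and 22.2% of members against 1.01% and 0.50%, and Reg3b in 9.05% and 4.97% against 0.50% and 0.30%. For Ffar4, Calcb and Reg3b the members were not thinned here, so depth was not matched. Members were chosen for UMIs of these genes, so the gap to other cells follows from the rule in part and is not support for it. Ffar4 was detected more often beside Calcb, in 82.9% of Calcb-positive members and 67.9% of the others in the first channel, and in 86.8% and 78.8% in the second. Calcb was found in 31.4% of Reg3b-positive members and 18.0% of the others, and in 32.0% and 21.7%. Depth was not matched in these pairs. All of these genes count toward membership, so the pairs do not show how the genes relate outside the rule.

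The receptor markers set the gate, so their levels describe the chosen cells and do not check the cell type. The prolactin receptor Prlr was detected in 100% and 99.6% of members, at 2332 and 1925 CPM against 35.2 and 27.1 CPM in receptor-negative cells. The progesterone receptor Pgr was detected in 86.8% and 87.3%, the oestrogen receptor Esr1 in 32.8% and 31.7%, and the transcriptional co-regulator Cited1 in 61.4% and 55.7%. The tetraspanin Tspan1, listed as a marker of these cells, was detected in 96.4% and 96.3% of members but also in 96.5% and 96.0% of Krt4 Sprr2f cells, at 496 and 485 CPM in the first channel and 574 and 552 in the second. It therefore marked receptor-positive cells as a whole. Against Krt4 Sprr2f cells, Prlr was lower in members, at 2332 and 3486 CPM and at 1925 and 2643 CPM, and so was Cited1, at 244 and 318 and at 229 and 286 CPM. Pgr differed little, at 232 and 224 CPM and at 222 and 243 CPM, as did Areg, at 3329 and 3418 CPM and at 2951 and 2991 CPM. Prlr and Cited1 were counted in the gate, so these values describe cells already chosen on their sum.

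**Figure D2:**
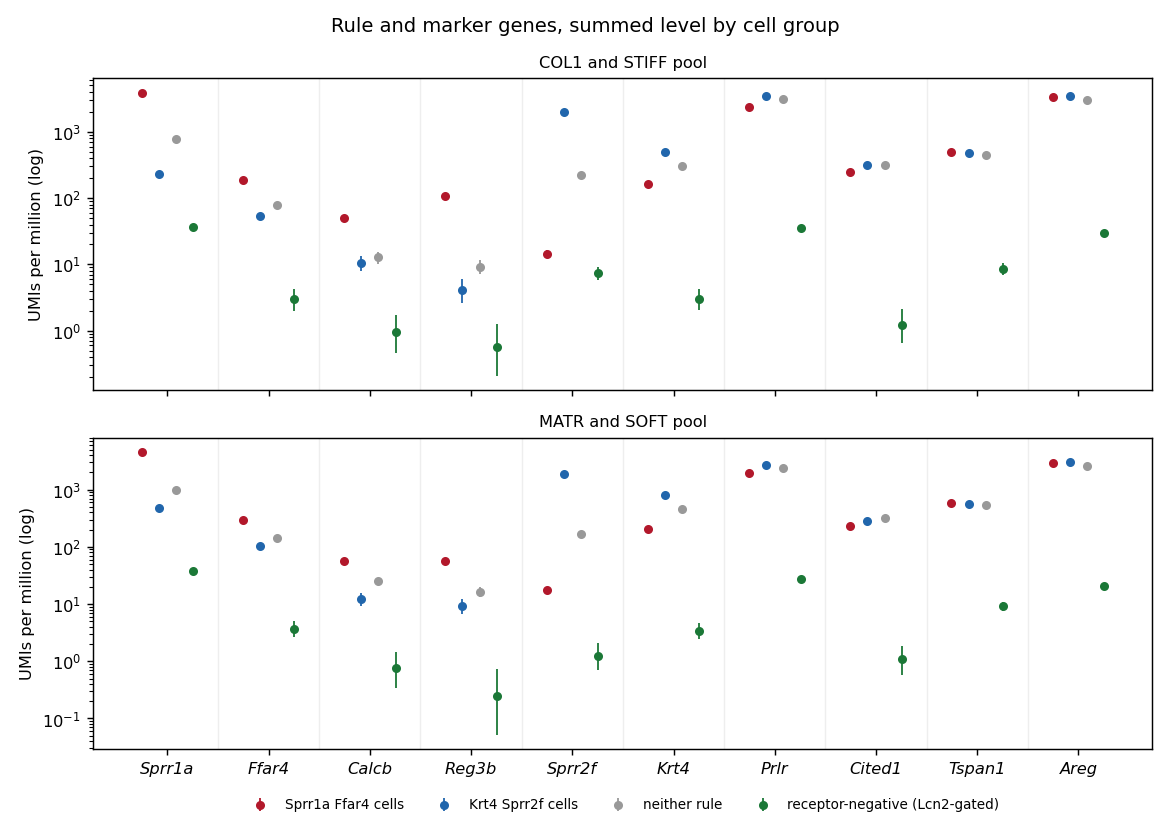
CPM on a log axis, with 95% counting intervals, of 10 genes in 4 groups of cells, one panel per channel. Sprr1a, Ffar4, Calcb and Reg3b separate Sprr1a Ffar4 cells from Krt4 Sprr2f cells by the rule. Prlr, Cited1, Tspan1 and Areg lie close in both and far below in receptor-negative cells. The receptor-negative gate allowed under 2 UMIs of the receptor markers, so low Prlr and Cited1 there follow from that gate.

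Genes that the rule did not name were compared between the Sprr1a Ffar4 and Krt4 Sprr2f cells of each channel. Since the cells were chosen on these same libraries, this is a description, with no test. Of 2833 genes with enough UMIs to compare (at least 200 over both groups and 50 CPM in 1), 5 (0.176%) were at least 2-fold higher in members in both channels and 11 (0.388%) at least 2-fold lower. Folds are on the scale of CPM plus 10. Clca3a2, of the family of chloride channel regulators, led the higher genes, followed by Tnip3, an inhibitor of NF-kB signalling, Pwwp3b, the copper-carrying ferroxidase Cp and the growth factor Pdgfa. The lower genes included the beta-defensin Defb1, Fam90a1a, Smim38, the extracellular glutathione peroxidase Gpx3 and Cbs and Cdo1, enzymes of cysteine metabolism. Acot1, a fatty acyl-CoA thioesterase, the membrane protein Prom2, the AP-1 family repressor Jdp2, the neuropeptide gene Calca and the keratin Krt79 completed that set.

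Clca3a2 stood at 265.8 CPM in Sprr1a Ffar4 cells and 43.42 in Krt4 Sprr2f cells in the first channel, and at 263.4 and 43.35 CPM in the second, log2 ratios of 2.37 and 2.36. Within the conditions it was at 389.7 and 88.7 CPM in COL1, 221.1 and 37.4 in STIFF, 136.3 and 31.21 in MATR and 347.6 and 39.57 for SOFT. It was thus higher in members in each of the 4 cultures. Tnip3 was at 185.5 and 50.68 CPM in COL1, 141.6 and 44.38 in STIFF, 99.57 and 33.23 in MATR and 202.6 and 42.04 for SOFT. Pwwp3b was at 72.45 and 30.77, 124.6 and 32.41, 52.01 and 18.78, and 128.3 and 35.86 CPM in the same order. The extracellular chaperone clusterin (Clu) was at 2003 and 928.6 CPM in COL1, 1682 and 1008 in STIFF, 1072 and 680.2 in MATR and 2712 and 720.9 for SOFT, so that its ratio was widest in SOFT. Itgb6, an epithelial integrin subunit, was at 171.7 and 65.16, 121.4 and 57.35, 132.5 and 79.75, and 187.8 and 90.27 CPM.

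Of the lower genes, Defb1 stood at 131.7 CPM in members and 360.2 in Krt4 Sprr2f cells in COL1, 128.3 and 669.0 in STIFF, 94.09 and 258.3 in MATR and 73.76 and 226.3 for SOFT. Fam90a1a was at 22.39 and 94.13, 27.21 and 186.0, 21.73 and 86.11, and 22.05 and 76.67 CPM in the same order. Gpx3 was at 364.7 and 932.2, 1045 and 2410, 649.2 and 1217, and 163.4 and 571.3 CPM. Its level in STIFF members was thus above that of Krt4 Sprr2f cells from COL1 or SOFT, and its order between the groups holds within a culture, not across them. Prom2 was at 75.74 and 224.5, 95.18 and 241.1, 119.0 and 232.6, and 53.79 and 158.3 CPM. Of the 24 genes ranked first in either direction, all 24 kept their direction in all 4 conditions under both ways of reading the tags. They had been ranked on these same cells by ratios of the same sign in both channels, so this follows in part from the choice. No such share was computed over all genes compared. Under the stricter tag call, Clca3a2, Tnip3 and Pwwp3b above and Fam90a1a, Defb1, Smim38 and Cbs below were past 2-fold in all 4. Under the more permissive call Pwwp3b and Smim38 missed 2-fold in 1 condition each, which left 2 genes above and 3 below. The Krt4 Sprr2f cells of COL1 and SOFT behind these values numbered only 41 and 51.

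**Figure D3:**
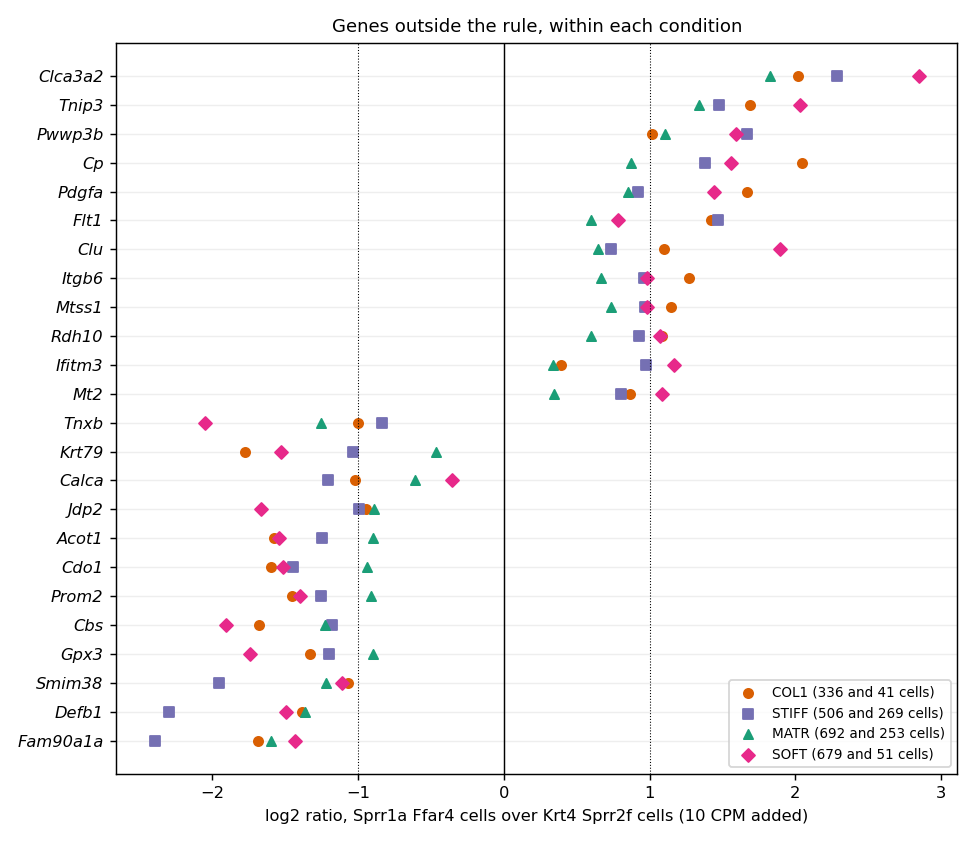
Log2 ratio (CPM plus 10) of Sprr1a Ffar4 cells over Krt4 Sprr2f cells for 24 genes outside the rule, 1 point per condition; dotted lines mark 2-fold. Every point lies on the side of 0 on which its gene was ranked, and the ranking used these same cells. Clca3a2 lies furthest to the right, from 1.83 in MATR to 2.85 in SOFT.

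Against the cells that met neither rule the members stood less far apart. Of 2821 genes, 2 (0.0709%) were at least 2-fold higher in both channels and 3 (0.106%) at least 2-fold lower. Clca3a2 was at 265.8 and 54.48 CPM in the first channel and 263.4 and 107.6 in the second, and Tnip3 had log2 ratios of 1.29 and 1.08. Defb1, at -1.497 and -1.348, Smim38, at -1.26 and -1.09, and Fam90a1a, at -1.20 and -1.16, were the lower genes. These 5 genes were thus displaced from both other receptor-positive groups. A graph of 15 nearest neighbours was built without the rule's genes, including the receptor markers, luminal and basal keratins and Lcn2 of the gates. In it 64.7% of members' neighbours were members in the first channel, where members made up 52.3% of cells. The values were 77.4% against 69.0% in the second. Among the neighbours of Krt4 Sprr2f cells 32.9% and 45.4% were members. Within single cultures the members' share among their neighbours was 77.42% against 70.15% of all cells in COL1, 58.1% against 46.8% in STIFF, 63.4% against 56.8% in MATR and 85.8% against 80.5% for SOFT. The difference was thus smaller within COL1, STIFF, MATR and SOFT than in their channels, and each group had neighbours from the others.

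Lists of genes are given by how many measured members (at least 5 CPM) were 1.5-fold higher or lower in Sprr1a Ffar4 than in Krt4 Sprr2f cells. Over all genes measured 2.06% were higher and 0.729% lower in the first channel, and 1.2% and 0.794% in the second, with medians of 0.02 and 0.01 on the log2 scale. Of 6 receptor-positive markers, none passed in either direction, with medians of -0.15 and -0.17. Luminal transcription factors behaved alike, with 0 of 13 past 1.5-fold. Foxa1, a pioneer factor of the oestrogen receptor, was at 148 and 178 CPM and at 139 and 182 CPM. Gata3, needed for luminal fate, was at 403 and 499 CPM and at 337 and 412 CPM. Of 3 paracrine effectors of hormone action, Calca was lower in both channels, at 155 and 354 CPM and at 63.1 and 139 CPM. Wnt4 was at 325 and 285 CPM and at 362 and 336 CPM.

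Integrin subunits were higher for 4 of 10 measured members in the first channel and 2 of 10 in the second, with medians of 0.42 and 0.22. Itgb6 was at 132.5 and 54.8 CPM and at 155 and 78.9 CPM, and Itgb3 at 29.7 and 11.02 CPM and at 24.96 and 12.64 CPM. Of 12 NF-kB feedback and inflammatory genes 1 and 2 were higher, with medians of 0.38 and 0.28, and the inhibitor Nfkbia was at 470 and 356 CPM and at 287 and 218 CPM. Of 10 interferon response genes 2 and 4 were higher, with medians of 0.38 and 0.23, among them the antiviral enzyme Rsad2 at 30.83 and 15.77 CPM and 21.38 and 9.031 CPM. None of 11 cytokine receptor and STAT3 response genes and none of 8 AP-1 subunits passed, with medians of 0.25 and 0.18 and of 0.09 and -0.04. Of the former, the transcription factor Cebpb was at 354 and 252 CPM and at 391 and 280 CPM. Among EGF family ligands and receptors 1 of 7, the ligand Epgn, was higher, at 20.53 and 6.614 CPM and at 39.62 and 16.86 CPM. Of 17 hypoxia and glycolysis genes 2 and 1 were higher, and the shared one, Ndrg1, was at 219.2 and 65.47 CPM and at 394.2 and 227.4 CPM. Of 12 genes of fatty acid uptake and synthesis, listed because Ffar4 binds fatty acids, 2 and 1 were higher, with medians of 0.05 and -0.04. Of the 8 measured squamous keratin and envelope genes none was higher and Krt79 was lower. Sprr2a3, a relative of Sprr1a, was at 188 and 125 CPM and at 264 and 193 CPM.

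Markers of other cell types also differed between the groups. The 8 macrophage markers summed to 2208 CPM in members and 1588 in Krt4 Sprr2f cells in the first channel, with 0 of 8 past 1.5-fold, and to 780 and 1128 CPM in the second, with 3 of 8 lower. None of these markers was at 0. Of 5 fibroblast markers 3, the collagens Col1a1, Col1a2 and Col3a1, were higher in the first channel and 0 in the second. Members with at least 20 UMIs per 10000 of Lyz2, C1qa and Tyrobp numbered 50 and 30, and with as many of collagen genes 17 and 16. Such cells, and cells that carried both tags, were then left out of both groups. In the first channel Clca3a2 was then at 298.7 and 44.18 CPM, Clu at 1900 and 960.7 CPM and Itgb6 at 135.4 and 57.28 CPM. All had ratios close to those above. Members that carried both tags numbered 44 (3.90%) and 65 (3.23%), against 8 (1.86%) and 2 (0.535%) Krt4 Sprr2f cells. They stayed in the other values of whole channels, except in the splits by Calcb, Reg3b, Ffar4 and Sprr1a below. Values of single conditions under the stricter tag call did not include them. With all cells kept, G2/M phase genes were higher for 5 of 8 in the first channel and for 0 of 2 in the second. Among the 5 were Top2a, at 10.41 and 1.866 CPM, and Mki67, at 7.987 and 1.866 CPM. Both lay near the floor, in Krt4 Sprr2f cells below the 5 CPM that counted as measured.

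The share of receptor-positive cells that were Sprr1a Ffar4 cells differed between the cultures within each channel. It was 70.1% (65.8 to 74.2, 336 of 479 cells) in COL1 and 46.8% (43.8 to 49.8, 506 of 1082) in STIFF. It was 80.5% (77.6 to 83.1, 679 of 844) in SOFT and 56.8% (54.0 to 59.6, 692 of 1218) in MATR. Krt4 Sprr2f cells took the opposite order, with 8.56% in COL1, 24.9% in STIFF, 6.04% in SOFT and 20.8% in MATR, and cells of neither rule made up 21.3%, 28.4%, 13.5% and 22.4%. A more permissive reading of the tags, which compares the 2 tags of a cell with each other, put the members at 70.1%, 46.1%, 79.7% and 55.6% in that order. Members with no tag called numbered 241 (21.4%) and 576 (28.6%). Median depth was 11185 UMIs in COL1 members, 13490.5 in STIFF, 13167 in SOFT and 13784 in MATR. When all cells were thinned to 3000 UMIs the shares were 58.5%, 35.2%, 62.6% and 48.5%. The shares are therefore bound to the depth and the cut, while their order within each channel was the same in all 3 readings. Whether a share reflects other numbers of cells or other RNA levels per cell across the cut cannot be told apart.

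**Figure D4:**
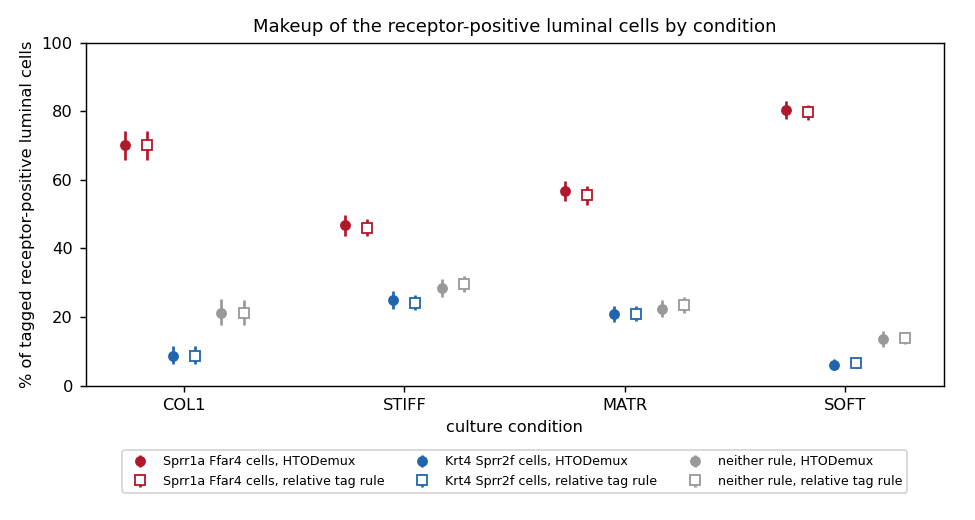
Percent of receptor-positive cells in each of the 3 groups by condition, with exact binomial 95% intervals; filled circles use the stricter and open squares the more permissive tag call. Sprr1a Ffar4 cells lie at 70.1% in COL1 and 80.5% in SOFT, and at 46.8% in STIFF and 56.8% in MATR.

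Among members, the rule's genes had different profiles by culture. Sprr1a stood at 4108 CPM in COL1, 3640 in STIFF, 4761 in MATR and 4582 for SOFT, a ratio of 1.13 (1.11 to 1.15) between COL1 and STIFF and of 1.04 (1.03 to 1.05) between MATR and SOFT. Ffar4 stood at 301, 135, 208 and 329 CPM in that order, 2.24-fold (2.06 to 2.42) higher in COL1 than in STIFF and 1.58-fold (1.498 to 1.669) higher in SOFT than in MATR. Calcb stood at 86.9, 33.9, 23.5 and 79.9 CPM, 2.57-fold (2.20 to 3.01) higher in COL1 than in STIFF and 3.40-fold (2.95 to 3.93) higher in SOFT than in MATR. Ffar4 and Calcb were higher in the culture of each channel that held the larger share of members. Both genes count toward membership, so this match follows from the rule in part and is not support for it. Thinned to 3000 UMIs, Ffar4 was detected in 49.7% of members in COL1, 28.7% in STIFF, 42.1% in MATR and 48.9% for SOFT (79.5%, 66.0%, 73.7% and 83.8% before thinning). Calcb was detected in 13.7%, 6.13%, 5.49% and 13.0% (27.7%, 14.6%, 14.3% and 29.2% before).

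Reg3b stood at 116 CPM in COL1, 104 in STIFF, 5.67 in MATR and 89.4 for SOFT, 15.8-fold (12.2 to 20.8) higher in SOFT than in MATR and 1.12-fold (0.999 to 1.25) higher in COL1 than in STIFF. The MATR culture was the low one. The 5 richest cells of each culture held 81.7% of the Reg3b UMIs of COL1 members, 43.7% of those of STIFF, 73.8% of MATR and 45.1% of SOFT, and the richest single cell held 249, 101, 14 and 149. The share of members with a Reg3b UMI was 9.52%, 9.68%, 2.46% and 7.81%, and after thinning 3.87%, 6.32%, 0.867% and 4.86%. The level of Reg3b thus rested on few cells, and its interval, which counts molecules as independent, is too narrow for that. The permissive tag call gave a ratio of 13.8 for SOFT over MATR. Of the opposing genes, Krt4 stood at 324 CPM in MATR members and 118 in SOFT, and Krt78 at 169 and 60.9 CPM, 2.76-fold (2.58 to 2.95) and 2.77-fold higher in MATR. The beta-defensin Defb14 stood at 58.7 and 10.6 CPM. Sprr2f ran the other way, at 7.895 CPM in MATR members and 15.62 CPM in SOFT. Prlr stood at 2238 CPM in COL1, 2510 in STIFF, 2238 in MATR and 1790 for SOFT, and Cited1 at 184, 265, 223 and 252 CPM.

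Over other genes, members of COL1 and STIFF were compared within their channel. Of 3100 genes, 6 (0.194%) were at least 2-fold higher in COL1 and 42 (1.35%) at least 2-fold lower. The higher ones were the hypoxia-responsive Ndrg1 (379.8 and 147.4 CPM) and the oxidoreductase Ero1l (418 and 163 CPM), the gap junction gene Gja1 (194 and 80.9 CPM), the sodium pump regulator Fxyd4 (159 and 66.7 CPM) and the metallothioneins Mt2 (519 and 234 CPM) and Mt1 (2595 and 1229 CPM). The lower ones were led by the kallikrein protease Klk1b27 (1.76 and 205 CPM) and included the heparin-binding factor Ptn (93.3 and 456 CPM). Mmp12, Mmp3, Ccl6 and Apoc2 were also among the 6 lowest. Macrophage markers differed in this contrast too, 8 of 8 lower in COL1 members and summed to 530 CPM in COL1 and 2219 in STIFF, and 30 STIFF members against 4 from COL1 carried them at high level. Without the cells rich in macrophage or collagen transcripts, 5 of 3081 genes (0.162%) were higher and 8 (0.26%) lower. Mmp12, Mmp3, Ccl6 and Apoc2 then stood at 1.86 to 3.57 CPM in STIFF members. The permissive tag call gave 5 (0.162%) higher and 34 (1.1%) lower of 3087 genes, with every member kept. In the cleaned set Klk1b27 (1.824 and 232.9 CPM), Klk1 (10.49 and 90.92 CPM), Ptn (96.44 and 487.9 CPM), Gpx3 (340.6 and 1061 CPM), Tnxb, the chemokine Cxcl13 (39.9 and 112.8 CPM), the phosphatase Dusp2 and Man1a were at least 2-fold lower in COL1. Of the gene lists, with 0.683% of all measured genes at least 1.5-fold higher in COL1 members and 2.32% lower, hypoxia and glycolysis genes had 2 of 16 higher, Ndrg1 and Ero1l. NF-kB feedback and inflammatory genes had 3 of 12 lower, or 2 under the permissive tag call, among them the cytokine Il1b (5.928 and 42.73 CPM) and the chemokine Cxcl2 (42.81 and 146.4 CPM), in the set that held the macrophage-rich cells. Of 9 G2/M phase genes 5 were lower, all below 10 CPM in both cultures. None of the 6 receptor-positive markers passed, with a median of -0.13.

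Members of MATR and SOFT were compared in the same way. Of 2957 genes, 7 (0.237%) were at least 2-fold higher in MATR and 8 (0.271%) lower. Gpx3 (649 and 163 CPM), the tissue factor F3 (582 and 237 CPM), Krt79 (101 and 36.3 CPM), the lysosomal thioesterase Ppt2 (64.7 and 24.6 CPM) and the serine protease Prss23 (324 and 148 CPM) were among the higher. Dusp2 (14.2 and 72.1 CPM), Clu (1072 and 2712 CPM), Clca3a2 (136 and 348 CPM), Pwwp3b (52.0 and 128 CPM) and the interferon-induced Ifitm3 (300 and 635 CPM) were among the lower. Macrophage markers summed to 461 CPM in MATR members and 969 in SOFT, with 5 of 7 lower. Without the cells rich in these or in collagen transcripts 8 of 2952 genes (0.271%) were higher and 8 (0.271%) lower, and Lyz2, at 328 and 715 CPM before, stood at 76.65 and 81.67 CPM. The permissive tag call gave 7 (0.238%) higher and 7 (0.238%) lower of 2940 genes. Of the gene lists, with 0.659% of all measured genes at least 1.5-fold higher in MATR members and 1.05% lower, none of the 6 receptor-positive markers passed, and of 10 integrins Itgb3 was lower (16.25 and 35.3 CPM). Of 17 hypoxia and glycolysis genes 1, Ankrd37, was higher (70.87 and 37.67 CPM), and 0 were under the permissive tag call. Of 10 interferon response genes 2 were lower, Ifit1 (12.17 and 26.99 CPM) and Ifi27l2a (5.201 and 15.82 CPM), and 0 were under the permissive tag call. Clca3a2, Clu and Pwwp3b, which set members apart from Krt4 Sprr2f cells, thus also differed among members, with the higher level in SOFT. Gpx3, low in members, was lower in COL1 and SOFT members than in those of STIFF and MATR.

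Members also differed from each other along Calcb and Reg3b. In these splits, chosen after the data were seen, cells rich in macrophage or collagen transcripts and cells with both tags were left out. Cells with at least 3 UMIs of a gene were set against cells with none. Gene counts of all splits include the rule's genes, except the gene split on. The other comparisons left the rule's genes out. Members with Calcb (81 and 179 cells, median depths of 13831 and 14205 UMIs) were compared with 839 and 1511 cells without it (11338 and 11870 UMIs). Of 2914 genes 11 (0.377%) were at least 2-fold higher in both channels and 7 (0.24%) lower. Clca3a2 stood at 817 and 212 CPM in the first channel and 735 and 188 in the second, and Clu at 4783 and 1415 CPM and 4994 and 1352 CPM. Itgb6 was at 332 and 106 CPM and 323 and 126 CPM, the matrix glycoprotein Thbs1 at 108 and 25.7 CPM and 100 and 30.3 CPM, and the cytokine Tnf at 69.9 and 21.6 CPM and 53.4 and 17.1 CPM. Fam13a was lower, at 117 and 418 CPM and 80.7 and 395 CPM, and so was Defb1, at 36.09 and 172.5 CPM and 13.97 and 104.6 CPM. Espn, which bundles actin, Il33, an epithelial alarmin, and Dbp, a clock-controlled transcription factor, were lower too. Calcb-positive members thus lay further out along several of the genes that separated members from Krt4 Sprr2f cells. Within the 4 conditions Clca3a2 had log2 ratios of 1.93 in COL1, 1.45 in STIFF, 2.03 in MATR and 1.61 for SOFT, and Fam13a of -2.42, -1.27, -2.05 and -2.28.

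Members with Reg3b (57 and 63 cells, median depths of 15907 and 13685 UMIs) were compared with 944 and 1821 cells without it (11483.5 and 12215 UMIs). Of 2901 genes 5 (0.172%) were at least 2-fold higher in both channels and 14 (0.483%) lower. Clu stood at 4358 and 1663 CPM and at 4680 and 1752 CPM, the mannosidase Man1a at 454 and 176 CPM and 423 and 133 CPM, and Clca3a2 at 722 and 254 CPM and 638 and 257 CPM. Ndrg1 was lower, at 57.9 and 248 CPM and at 94.6 and 428 CPM, and Ero1l at 79.2 and 280 CPM and 113 and 436 CPM. Gja1 had log2 ratios of -1.67 and -1.86 and F3 of -1.51 and -1.87. Reg3b-positive members thus had less Ndrg1 and Ero1l, which were higher in COL1 than in STIFF members. Ndrg1 was at -2.81 in COL1, -1.30 in STIFF, -1.73 in MATR and -2.19 for SOFT, where 17, 39, 6 and 55 cells carried Reg3b. Pwwp3b, at 1.27 and 1.59 in the channels, was at -1.66 in MATR with its 6 cells. Sprr1a had log2 ratios of 0.07 and -0.20, but both genes count toward membership, so this pair says nothing about how they relate.

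With the same cells left out, members were also split by the other genes of the rule. The groups had other sizes, so the counts are not set against those above. Between members with at least 3 Ffar4 UMIs (371 and 1038 cells) and none (313 and 376), 1 of 2841 genes (0.0352%), Clca3a2, was at least 2-fold higher in both channels, at 428 and 138 CPM and 339 and 129 CPM. Another 1 (0.0352%), Gpx3, was at least 2-fold lower, at 368 and 1336 CPM and 280 and 601 CPM. Between the 259 and 480 members with the most Sprr1a and as many with the least, 2 of 2835 genes (0.0705%) were higher and 0 (0%) lower. The 2 were Krt4 and Defb14, which the rule lets in at higher counts where Sprr1a is high.

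**Figure D5:**
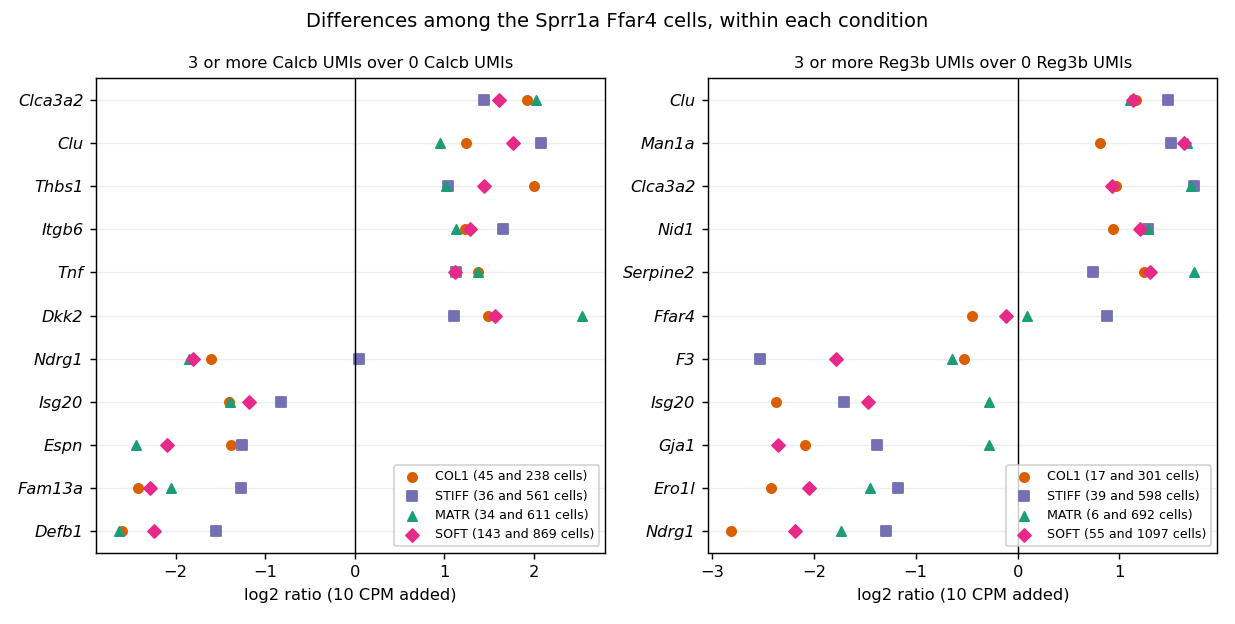
Log2 ratio (CPM plus 10) among Sprr1a Ffar4 cells of those with at least 3 UMIs over those with none, for Calcb and for Reg3b, 1 point per condition under the more permissive tag call. Clca3a2 and Clu lie above 0 in both panels in all 4 conditions; Fam13a and Defb1 lie below 0 for Calcb, and Ndrg1 for Reg3b.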

How the data were processed

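Mouse mammary organoid cells from 4 gel conditions were profiled by 3′ droplet sequencing in 2 channels of 2 conditions each. The gene values are UMI counts per cell as deposited by the authors, made with Cell Ranger 5.0.0 on mm10 and handled with Seurat 4.2.0, per the submitters' processing notes. Each channel was deposited as a gene expression entry and a hashtag entry, both named for its 2 conditions and with the same gene counts. The gene counts were read once, from the gene expression entry (133608252 and 131036333 UMIs, 10615 and 8767 barcodes, 32285 genes). The channels shared 22 barcode sequences, 1 of them among the members. The hashtag antibody counts are likewise deposited counts. Nothing in the sources used here says how empty droplets or doublets were treated.

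Of the barcodes, 7668 and 7676 passed the filters on depth and mitochondrial share, 2156 and 2917 were receptor-positive luminal cells and 1127 and 2012 were members. The members and the 32 gene lists were chosen with earlier results of these data known. Tags were called with HTODemux (Seurat 5.3.0, quantile 0.99) and, as an alternative, by comparing the 2 tags of a cell. UMIs were summed over each group of cells and scaled to CPM. Log2 ratios used 10 CPM as a pseudocount and were compared at genes with at least 200 UMIs in both groups together and 50 CPM in 1. Between groups of cells the 12 genes with the largest ratio in each direction were ranked, leaving out the rule's genes, and between conditions the 6 largest. The text names only part of these, with further genes from the splits and from the sets without macrophage-rich and collagen-rich cells. List members were picked by their role or as those past 1.5-fold. With 1 culture per condition no test was run. Intervals are exact at 95% (Clopper-Pearson for shares, Poisson for levels, conditional binomial for ratios) and cover counting error only. On simulated counts the ratio intervals held the true ratio for 95.8% and 95.9% of 3960 and 3373 genes, for the comparison of Sprr1a Ffar4 with Krt4 Sprr2f cells in each channel. These counts were Poisson draws with no spread between cells, as the intervals assume. They check the calculation only, not whether the intervals are wide enough for real cells. A doublet caller (Scrublet in scanpy 1.11.5) marked 0 of 9568 and 0 of 7945 cells, so it did not work and removed no doublets. Leaving out cells with both tags, or those of the highest scores, was an alternative. Macrophage-rich and collagen-rich cells were left out as an alternative. The splits among members left out these cells and cells with both tags throughout, and compared the rule's genes too, except the gene split on. Other tools were Python 3.11.15, scipy 1.17.1, scikit-learn 1.9.0, R 4.3.3 and, for TMM factors as an alternative scaling, edgeR 4.0.16. Calcb, Krt4 and Defb14 had no promoter entry in the RefSeq table and 6 of 9 genes searched matched.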

Additional observations from a re-analysis of the deposited data

Results flagged for a closer look

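An additional hashtag, outside either channel's tag pair, had counts in members, 2453 in the COL1 and STIFF channel and 3102 in the MATR and SOFT channel. These exceed the 3 that a count of 0 allows, a limit that a sum over many cells passes easily. Over all barcodes the tag had 13315 and 13477 counts, so it was not particular to members. The members' counts lay in 629 of 1127 and 1060 of 2012 members, with a median of 1 per cell and at most 188 and 40. In cells called for the other tag, the 2 tags of each channel had medians of 32 and 176, and of 40 and 154.

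Of the genes named in the comparison of members with cells of neither rule, 4 had opposite directions in COL1 and STIFF under the stricter tag call, and the difference between the conditions was not tested. Timp1 had a log2 ratio of -0.682 in COL1 and 1.677 in STIFF, Cald1 of -0.843 and 1.289, Col1a2 of -2.84 and 2.133, and Gpx3 of 0.597 and -0.984. Under the more permissive tag call Timp1 and Cald1 were higher in members in all 4 conditions, with lowest ratios of 0.109 and 0.121, while Col1a2 and Gpx3 kept a condition that ran the other way. The fibroblast gene Col1a2 stood at 52.3 CPM in COL1 members and 435.7 CPM in COL1 cells of neither rule, of which 4 were collagen-rich, against 3 of the members.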

How the results depend on the processing

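Of 88 alternative values, 57 stayed close to the one reported; they are shares and counts, which carry no direction. No paired analysis was possible because each condition was 1 culture and the labels give no replicate to match. The share of members, 52.3% in the COL1 and STIFF channel and 69.0% in the MATR and SOFT channel, was 40.9% and 56.1% after thinning to 3000 UMIs, 48.0% and 64.6% with at least 10 UMIs of the 4 genes, and 45.04% and 59.38% at 4 times the opposing genes. It was 64.6% without Ffar4 in the second channel and 11.4% and 20.8% without Sprr1a. By condition, thinning gave 58.5%, 35.2%, 48.5% and 62.6% (COL1, STIFF, MATR, SOFT), and leaving out Sprr1a 24.6%, 7.58%, 7.14% and 34.0%. At 10 UMIs the share was 65.1% in COL1, 42.7% in STIFF and 75.5% in SOFT. The 16 genes past 2-fold between members and Krt4 Sprr2f cells (5 higher, 11 lower) became 37 (21 higher, 16 lower) in the COL1 and STIFF channel alone, 30 (11 and 19) in the other alone and 55 with the rule applied without Sprr1a. The 5 genes against cells of neither rule became 14 and 11 in either channel alone, 8 with no filter on low counts and 24 without Sprr1a. The 48 genes between COL1 and STIFF members became 96 with no filter and 13 without macrophage-rich and collagen-rich cells. The 15 between MATR and SOFT members (7 higher, 8 lower) were 7 and 6 with TMM factors and 7 and 5 with the mean of per-cell CPM, 16 without macrophage-rich and collagen-rich cells, and became 28 with no filter and 26 with a pseudocount of 1. Leaving out cells with both tags put the share of members at 51.8% and 68.5%, and leaving out the highest doublet scores at 52.1% and 68.9%, with 17 and 5 genes past 2-fold in the comparisons between groups. Krt4 Sprr2f cells of COL1 and SOFT were few (41 and 51), which limits values within those conditions.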
